A study of Mus musculus with 12 samples.

Results

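The genes described here encode the proteins of the mitochondrial ribosome. They were chosen by name, as every gene whose symbol starts with Mrpl or Mrps followed by a digit once the RefSeq accession of its array probe had been matched to a mouse gene table. This gave 78 genes, 49 with a large subunit symbol (Mrpl) and 29 with a small subunit symbol (Mrps). Of these, 77 passed the filter on dim probes, out of 19507 genes or unnamed transcripts that passed it in all, and each of the 77 was above background on all 12 arrays. The remaining gene, Mrpl21, was above background on 2 arrays and was not tested.

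Transcripts of primary fibroblasts cultured from E12.5 mouse embryos (MEFs) were measured on 12 Agilent arrays with 1 dye. The 4 groups of 3 arrays each were wild type (WT) cells after 3 passages (WT early) and after 5 passages (WT late), and Itpr2 knock-out cells after 3 passages (KO early) and after 5 passages (KO late). The product of Itpr2 is an inositol trisphosphate receptor, through which calcium leaves the endoplasmic reticulum, and the title of the series sets the question of how its loss alters fibroblasts at early and late passage. The design text describes the fibroblasts as coming from 3 independent WT or KO mice; the sources used here do not give the deleted exon or the strain.

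Mitochondria keep a small genome whose messenger RNAs encode core subunits of the respiratory chain and of ATP synthase, and the mitochondrial ribosome is the only machine that translates them. Its RNAs come from mitochondrial DNA, but all of its proteins are encoded in the nucleus, made on cytosolic ribosomes and imported. The small subunit binds the messenger RNA and reads the codons, and the large subunit joins the amino acids and passes the new chain to the inner membrane. Some of the proteins have a bacterial counterpart, and others exist only in mitochondria.

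Levels are given as the log2 of the spot intensity minus the 75th percentile of its array, so 0 means as bright as that percentile. Levels of different genes cannot be compared on this scale, because each probe has its own brightness. Per array, 59.2% to 67.5% of probes were well above background, replicate arrays correlated at 0.985 to 0.997, and 0 probes for these genes were saturated. The probe for Itpr2 was not lower on the KO-labelled arrays, with 1.12 to 1.58 on KO early arrays against 0.66 to 1.23 on WT early arrays. The sources used here do not say whether that probe lies in the deleted part, so it does not check the genotype, and KO below means the arrays labelled so. Replicate numbers were slide numbers, and each of the 3 slides held all 4 groups. Xist, the transcript of the inactive X chromosome, was above background on WT early replicate 1, WT late replicate 1 and KO late replicates 1 and 2, and on none of the KO early arrays.

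Across all 12 arrays the mitochondrial ribosomal protein genes moved within a narrow range and were highest on KO early and lowest on KO late arrays. The median gene spanned 0.50 log2 units from its lowest to its highest array, against 0.81 for all genes tested, and single genes spanned 0.19 to 1.18. The mean of the KO early group was the highest of the 4 group means for 58 of the 77 genes, and the KO late mean was the lowest for 53. Over all genes tested, KO early was the highest group for 27% and KO late the lowest for 33.4%. With each gene set to its own mean over the 12 arrays, the median of the 77 genes was 0.22, 0.096 and 0.012 on KO early replicates 1, 2 and 3. The same median was -0.13, -0.12 and -0.11 on the KO late arrays, 0.011, 0.092 and -0.045 on the WT early arrays and -0.015, -0.067 and -0.052 on the WT late arrays. The KO late arrays thus lay close together, below the other 9, while the KO early arrays were spread, and replicate 1 alone held the highest value of 54 genes. In both subunits KO early replicate 1 had the highest median and the KO late arrays the lowest 3. On KO early replicate 1 the median of the cytosolic ribosomal protein genes was also high at 0.30, and so was that of the respiratory chain genes at 0.30. RNA quality values were not used here, and whether some property of this array raised all these groups was not tested.

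**Figure D1:**
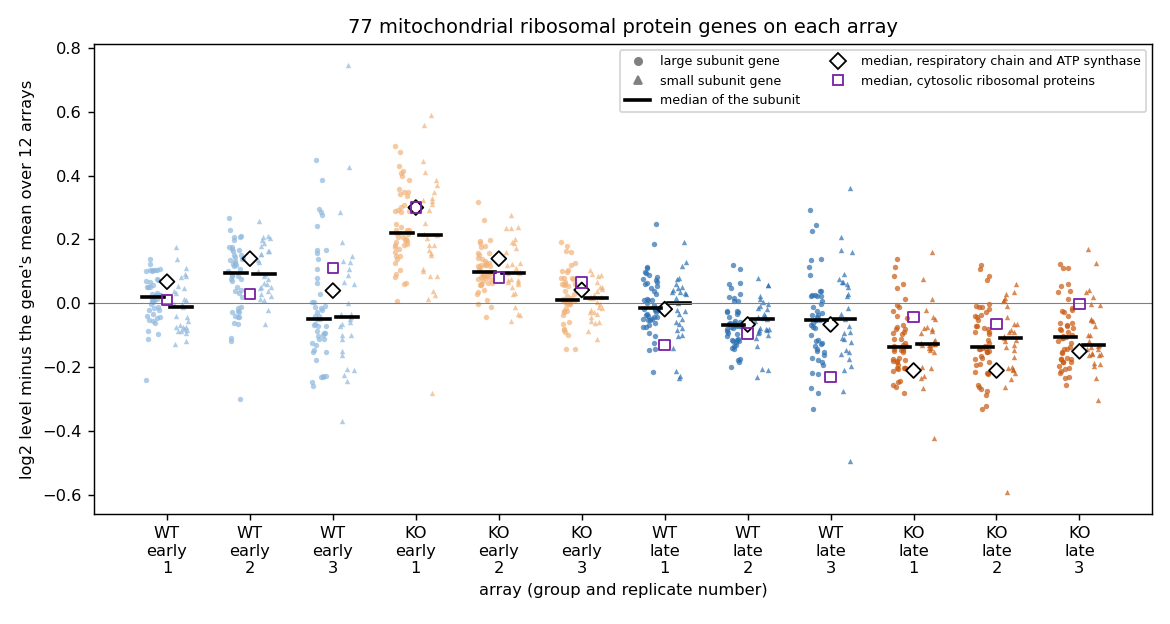
Level of each of the 77 genes on each of the 12 arrays, as log2 level minus the gene's own mean over the arrays (y axis), with large subunit genes as circles, small subunit genes as triangles and a line at the median of each subunit. Open diamonds and squares mark the medians of the respiratory chain and cytosolic ribosomal protein genes on the same scale. KO early replicate 1 stands highest, with a median of 0.22 over the 77 genes, and the KO late arrays stand lowest at -0.13, -0.12 and -0.11.

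Late against early passage in KO cells gave the largest number of calls. Of the 77 genes, 15 fell and 0 rose (limma, adjusted p under 0.05 over all 19507 genes). The background in this comparison was 9% of all genes called lower and 9.95% called higher, and 19.5% of the mitochondrial ribosomal protein genes were called lower. Those that fell were 13 of 48 large subunit genes (27.1%) and 2 of 29 small subunit genes (6.9%, below the share of all genes). The difference was negative for 72 of the 77, with a median of -0.24 against -0.047 over all genes, and 44 had an unadjusted p under 0.05 (33.8% of all genes). In 61 genes every KO late array was below every KO early array, a pattern met by 29.3% of all genes tested, and Mrps17 was the only 1 of the 77 in which every KO late array was above every KO early array. In bulk RNA such as this, fewer cells of a type that is rich in these transcripts and less of them per cell cannot be told apart. Xist was above background on KO late replicates 1 and 2 and on no KO early array. The early and late KO groups may thus hold cells of different embryos, which the test cannot tell apart from passage.

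Mrpl49, which encodes a large subunit protein with no bacterial counterpart, had the smallest p. Its log2 level was 1.47, 1.30 and 1.20 on KO early arrays and 0.76, 0.71 and 0.82 on KO late arrays. The groups did not overlap, and the gene fell by 32.1% (log2 difference -0.56 ± 0.097 SE, limma adjusted p = 0.0046). Mrpl57, another large subunit protein found only in mitochondria, read 4.59, 4.38 and 4.32 on KO early arrays and 4.00, 3.98 and 4.01 on KO late arrays. The late values were almost identical to each other and all below the early ones, and the gene fell by 25.8% (-0.43 ± 0.093, limma adjusted p = 0.012). Mrps6, the counterpart of the bacterial small subunit protein S6, read 3.86, 3.51 and 3.23 on KO early arrays and 2.85, 2.68 and 2.97 on KO late arrays. It fell by 38.3%, the most of the 77 genes (-0.70 ± 0.15, limma adjusted p = 0.012), although the KO early arrays themselves were spread over 0.63 log2 units.

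The other 12 genes that fell lay between -0.45 and -0.28. Mrpl33 and Mrpl51 fell by 0.45 on the log2 scale (limma adjusted p = 0.026 and 0.031), and Mrpl20, a counterpart of the bacterial protein L20, fell by 0.41 (adjusted p = 0.025). Mrpl14, which lies at the face of the large subunit that meets the small one, fell by 0.37 (adjusted p = 0.015). Mrps14, the other small subunit gene called, fell by 0.35 (adjusted p = 0.032), with 2.54, 2.39 and 2.25 on KO early and 2.03, 2.01 and 2.07 on KO late arrays. Mrpl45, which ties the large subunit to the inner membrane, fell by 0.35 as well, just inside the threshold (adjusted p = 0.048). Mrpl40, Mrpl36, Mrpl34, Mrpl18, Mrpl17 and Mrpl28 lay between -0.35 and -0.28. Among the genes that did not pass, Mrps10 had a difference of -0.50 ± 0.17 (adjusted p = 0.061) and Mrps9 one of -0.25 ± 0.082 (adjusted p = 0.061). Only Mrps25, Mrpl35, Mrpl3, Mrps17 and Mrpl48 had a difference above 0, between 0.0017 and 0.16, and none of these passed the test.

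**Figure D2:**
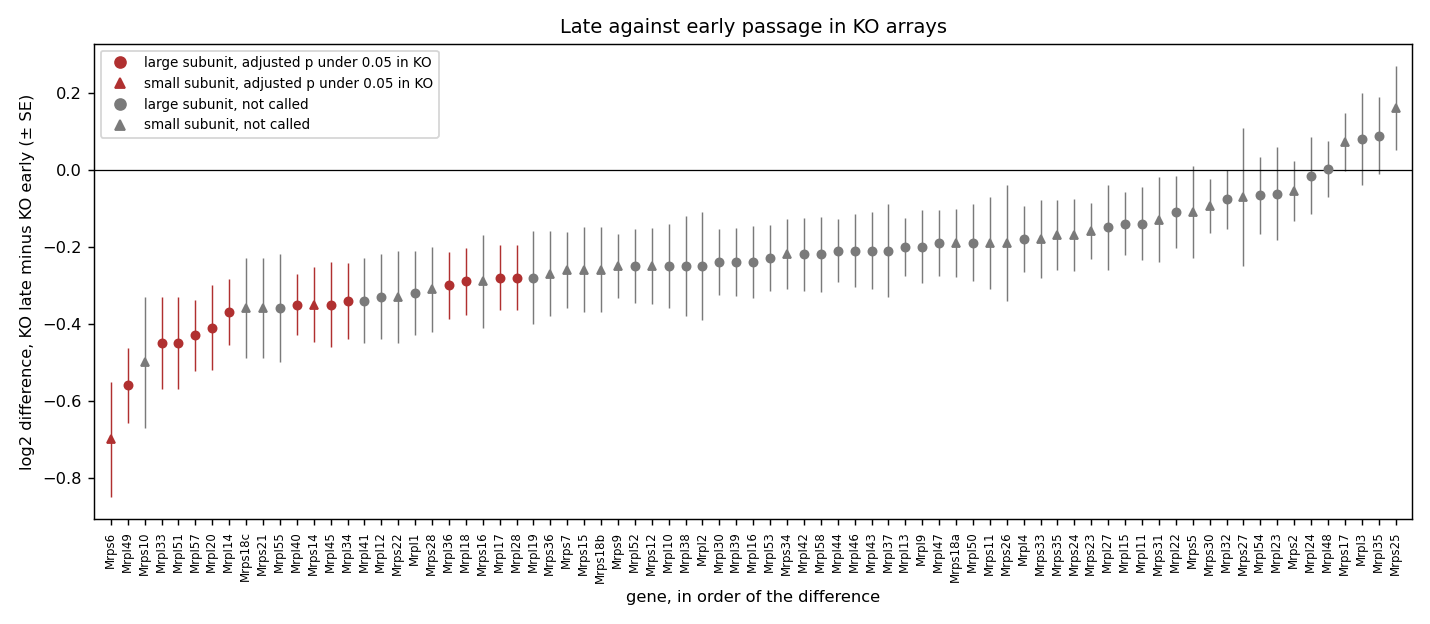
Log2 difference of KO late minus KO early for each of the 77 genes, in rising order, with the SE of the limma model as bars; circles are large and triangles small subunit genes, and red marks an adjusted p under 0.05. The 15 red points run from Mrps6 at -0.70 to Mrpl17 and Mrpl28 at -0.28, and 5 genes lie above 0.

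How many genes passed depended on single arrays, and the direction of the median did not. Without KO early replicate 1 or without KO late replicate 1, 3 genes passed, and in both cases these were Mrpl49, Mrpl57 and Mrps6. Of all genes, 4.4% and 3.82% were called lower in these fits. Without KO late replicate 2, 3 genes passed (4.34% of all genes lower). Without KO early replicate 2 or KO late replicate 3, 4 did (4.43% and 5.21%). Without KO early replicate 3, 23 did (9.46%). Only in the last of these fits was the share of the 77 genes far from that of all genes. Without slide 1, 0 passed (limma), where 2.27% of all genes were called lower, and the median difference was -0.17. Without both KO late arrays that carried Xist, only KO late replicate 3 was left in its group, and the median difference was -0.22. Within slides 1, 2 and 3 the median difference was -0.33, -0.22 and -0.11, and 73, 72 and 65 of the 77 genes were negative.

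The large subunit genes that fell were split between both evolutionary origins. Of 28 tested large subunit genes classed here as having a bacterial counterpart, 8 fell (median difference -0.24). Of 19 classed as specific to mitochondria, 5 fell (median -0.23). Of 16 small subunit genes in the first class, 2 fell (median -0.26), and of 10 in the second, 0 fell (median -0.17). Of all genes, 9% were called lower. The classes are approximate, since the second holds Mrps18b while its paralog Mrps18c is in the first. Mrpl55, Mrps18a, Mrps30 and Mrps36 were in neither. The difference between subunits or classes was not tested.

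The promoters of these genes are shown because the genes moved together with passage in KO cells. RefSeq promoter windows (GRCm38.p6), from 250 bases before to 50 bases after the start of the gene, were found for 68 of the 77 tested genes, with 74 windows in all. They were searched on both strands for CGCANGCG, the core of the motif of NRF1, and for CCGGAAG, a core bound by ETS factors such as GABPA. NRF1 and GABPA are known as regulators of nuclear genes for mitochondrial proteins. The NRF1 core was present in 27% of the 74 windows and in 8.21% of all 32851 windows in the table, and the ETS core in 33.8% against 8.86%. The windows of the table were not matched to the 74 in base content or in expression of their genes. ATGGCGG, a core of the YY1 motif, was in 17.6% against 4.05%, and the E-box CACGTG, which Myc binds, in 9.46% against 7.15%. Each motif was counted by itself, and matches to different motifs may overlap. Windows and not genes were counted. Of the 7 windows with an E-box, 3 belonged to Mrpl2, which was not among the genes that fell. Of the 15 genes that fell, each with 1 window, 5 held the NRF1 core, 6 the ETS core, 2 the E-box and 0 the YY1 core. In the 59 windows of the other members, 25.4% held the NRF1 core, 32.2% the ETS core, 8.47% the E-box and 22% the YY1 core. A match is a description of letters in the window and not of a bound site. The windows of the 3 genes with the smallest p are printed 5′ to 3′ on the strand of the gene, from 250 bases before to 20 bases after its start, with NRF1 and ETS cores in capitals. The window of Mrpl49 lies at chr19:6057736-6058005 on the minus strand, that of Mrpl57 at chr14:57825989-57826258 on the plus strand and that of Mrps6 at chr16:92058086-92058355 on the plus strand.
Mrpl49: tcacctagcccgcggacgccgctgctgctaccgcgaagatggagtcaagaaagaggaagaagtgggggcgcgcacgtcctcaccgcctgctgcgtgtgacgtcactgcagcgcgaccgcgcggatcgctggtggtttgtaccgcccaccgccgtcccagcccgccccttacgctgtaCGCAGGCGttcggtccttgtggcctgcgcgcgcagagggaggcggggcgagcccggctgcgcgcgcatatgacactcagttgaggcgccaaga
Mrpl57: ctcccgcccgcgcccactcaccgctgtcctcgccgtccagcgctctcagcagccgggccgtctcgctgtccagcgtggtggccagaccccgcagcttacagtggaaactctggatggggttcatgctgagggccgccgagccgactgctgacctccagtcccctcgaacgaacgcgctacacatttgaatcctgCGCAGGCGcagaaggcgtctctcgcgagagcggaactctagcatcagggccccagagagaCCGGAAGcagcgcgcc
Mrps6: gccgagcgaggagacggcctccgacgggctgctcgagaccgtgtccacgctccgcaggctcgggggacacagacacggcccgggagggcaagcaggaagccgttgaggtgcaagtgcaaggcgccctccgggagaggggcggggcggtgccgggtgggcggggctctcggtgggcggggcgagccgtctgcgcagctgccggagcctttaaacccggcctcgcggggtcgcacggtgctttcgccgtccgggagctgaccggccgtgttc
The window of Mrpl49 holds 1 NRF1 core, starting 73 bases before the start, and that of Mrpl57 holds 1 NRF1 core, starting 56 bases before it, and 1 ETS core, starting at base 5 of the transcript. In the window of Mrps6, the gene that fell most, these letters were not found.

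Passage in WT cells gave 0 calls among the 77 genes. By limma at an unadjusted p under 0.05, 4 genes differed, against 28.4% of all genes tested. The background was 6.22% of all genes called higher and 4.37% called lower. The difference was negative for 57 genes, with a median of -0.063 against -0.0043 over all genes. In 7 genes every late array was below every early array (13.8% of all genes), and in 1, Mrpl47, every late array was above (13.9%). Mrpl17 had the smallest p, with 2.01, 2.20 and 2.31 on WT early arrays and 1.92, 1.89 and 1.97 on WT late arrays. The groups did not overlap, but the early arrays differed among themselves by 0.30 (-0.25 ± 0.085, limma adjusted p = 0.088). Mrps11 came next at -0.31 ± 0.12 (adjusted p = 0.12), then Mrpl37 at -0.31 ± 0.12 and Mrpl48 at -0.18 ± 0.072 (both adjusted p = 0.13). Of the other small subunit genes, Mrps16 and Mrps35 had differences of -0.25 and -0.18 (both adjusted p = 0.21). Without WT early replicate 1, Mrpl17 and Mrps11 passed (limma adjusted p = 0.027 for each). In that fit 5.64% of all genes were called lower and 6.97% higher. The median within slides 1, 2 and 3 was -0.016, -0.15 and -0.029.

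The passage difference was more negative in KO than in WT cells for 66 of the 77 genes, and 0 of them passed the test of this difference. The same order held for 53.4% of all genes. The median of the difference between passage responses was -0.18, against -0.025 over all genes, and 9 of the 77 had an unadjusted p under 0.05 (13.9% of all genes). In all 19507 genes the test called 4 higher and 13 lower, which are 0.0205% and 0.0666%. Mrps6 differed most, by -0.78 ± 0.22 (limma adjusted p = 0.19), since it had a difference of 0.086 with passage in WT and -0.70 in KO. Of the large subunit genes, those with the smallest p were Mrpl34 at -0.43 ± 0.14 (adjusted p = 0.25), Mrpl47 at -0.37 ± 0.12 (adjusted p = 0.24) and Mrpl14 at -0.35 ± 0.12 (adjusted p = 0.27). By p, Mrps21 and Mrps7 came after Mrps6 among small subunit genes, with -0.36 ± 0.18 and -0.28 ± 0.14. Within slide 1 the median was -0.33, and within slides 2 and 3 it was -0.072 and -0.091. So a call in KO cells and none in WT cells does not show that the passage responses differ for any single gene here.

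**Figure D3:**
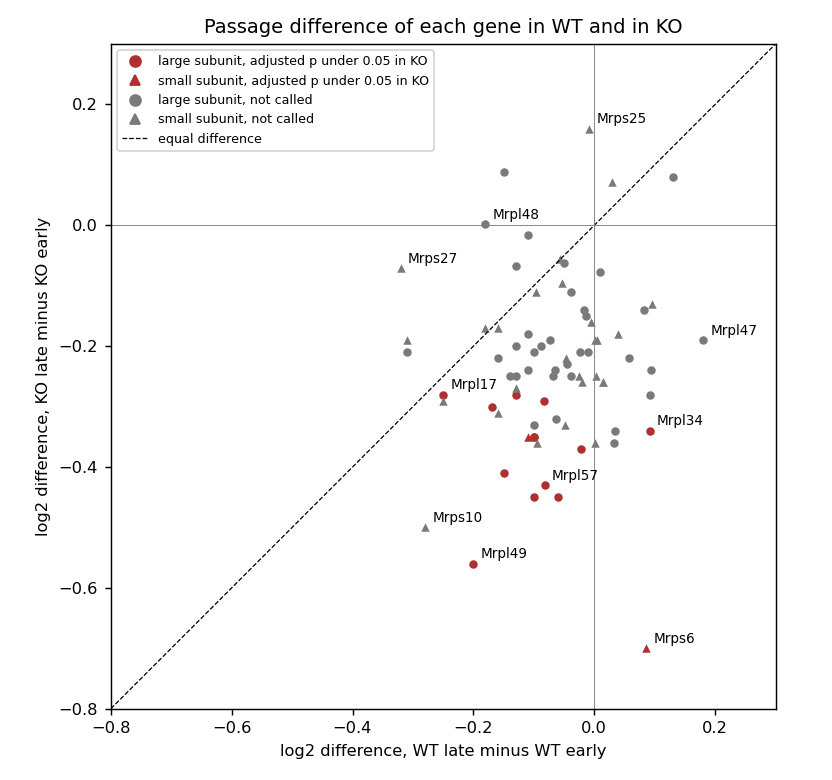
Log2 difference of late minus early passage for each of the 77 genes in WT cells (x axis) and in KO cells (y axis), with circles for large and triangles for small subunit genes and red for genes called in KO. Of the 77 points, 66 lie below the dashed line of equal difference, with Mrps6 farthest from it at 0.086 in WT and -0.70 in KO.

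At early passage most of the 77 genes had a small positive difference between KO and WT cells, and none was called. Of the 77 genes, 63 were positive, with a median difference of 0.096 against 0.017 over all genes, and limma called 0 of them. The background was low, with 0.0256% of all genes called higher and 0.0103% called lower, and 4 of the 77 had an unadjusted p under 0.05 against 5.99% of all genes. In 9 genes every KO array was above every WT array (5.24% of all genes), and in 0 genes was it below (4.29%). Mrpl47, the counterpart of the bacterial protein L29, read 0.99, 0.93 and 1.13 on WT early arrays and 1.52, 1.41 and 1.41 on KO early arrays. The gap between groups was larger than the spread within either, and the difference of 0.43 ± 0.085 had the smallest p of the 77 (limma adjusted p = 0.53). A second probe for Mrpl47 had a difference of 0.0013 ± 0.10, with the same sign but far smaller. The large subunit genes with the next smallest p were Mrpl52 at 0.24 ± 0.097 and Mrpl14 at 0.20 ± 0.086, and the first small subunit genes were Mrps31 at 0.26 ± 0.11, Mrps16 at 0.26 ± 0.12 and Mrps7 at 0.18 ± 0.099 (limma adjusted p = 0.74 for each). The positive shift lay mainly on slide 1, where the median was 0.21, against 0.0079 on slide 2 and 0.069 on slide 3. It was not particular to these genes. Of the cytosolic ribosomal protein genes 70 of 76 were positive (median 0.11), and of the respiratory chain genes 71 of 84 (median 0.095). On slide 1 their medians were 0.29 and 0.25. Without KO early replicate 1 the median was 0.041.

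At late passage KO cells had 1 gene higher and 1 lower than WT cells (limma), where 3.46% of all genes were called higher and 4.37% lower. The median difference was -0.081, with 54 of the 77 genes negative, against -0.0081 over all genes, and 8 had an unadjusted p under 0.05 (24.9% of all genes). In 30 genes every KO array was below every WT array, which 20.3% of all genes showed, and in 3 every KO array was above (19% of all genes). Mrpl48, a large subunit protein found only in mitochondria, read 2.50, 2.60 and 2.45 on WT late arrays and 2.83, 2.80 and 2.84 on KO late arrays. The groups did not overlap, and the gene was 23.8% higher in KO cells (0.31 ± 0.072, limma adjusted p = 0.031). It read 2.72, 2.69 and 2.70 on WT early and 2.78, 2.80 and 2.88 on KO early arrays, so the KO late arrays lay at the early level and the WT late arrays lay below all others. Mrps6 read 3.40, 3.33 and 3.48 on WT late arrays against the 2.85, 2.68 and 2.97 given for KO late arrays. Its level in KO differed by -32.5%, again without overlap (log2 difference -0.57 ± 0.15, limma adjusted p = 0.049). Of those that did not pass, Mrpl34 had -0.34 ± 0.099 (adjusted p = 0.062), Mrps12 -0.29 ± 0.099 (adjusted p = 0.10), Mrps23 -0.21 ± 0.073 (adjusted p = 0.11) and Mrpl57 -0.23 ± 0.093 (adjusted p = 0.15).

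Both late calls were close to the threshold. With slide as a block, 0 of the 77 genes passed, and Mrps6 then had an adjusted p of 0.07 (limma). In that fit 3.32% of all genes were called higher and 3.92% lower. Without any 1 of WT late replicates 1 or 3, KO early replicate 2 or KO late replicates 1, 2 or 3, 0 passed. In these fits 0.707% to 3.75% of all genes were called lower and 0.6% to 2.16% higher. Without WT early replicate 1 or 2 Mrpl48 alone passed, where 3.82% and 3.28% of all genes were called higher. Without slide 1, 0 passed, where 1.47% of all genes were called lower and 0.784% higher. Without the KO late arrays that carried Xist, only KO late replicate 3 was left in its group, and the median difference was -0.063. Over all 23 settings tried, the difference stayed between 0.27 and 0.36 for Mrpl48 and between -0.63 and -0.44 for Mrps6. The median of the 77 genes within slides 1, 2 and 3 was -0.13, -0.039 and -0.049.

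**Figure D4:**
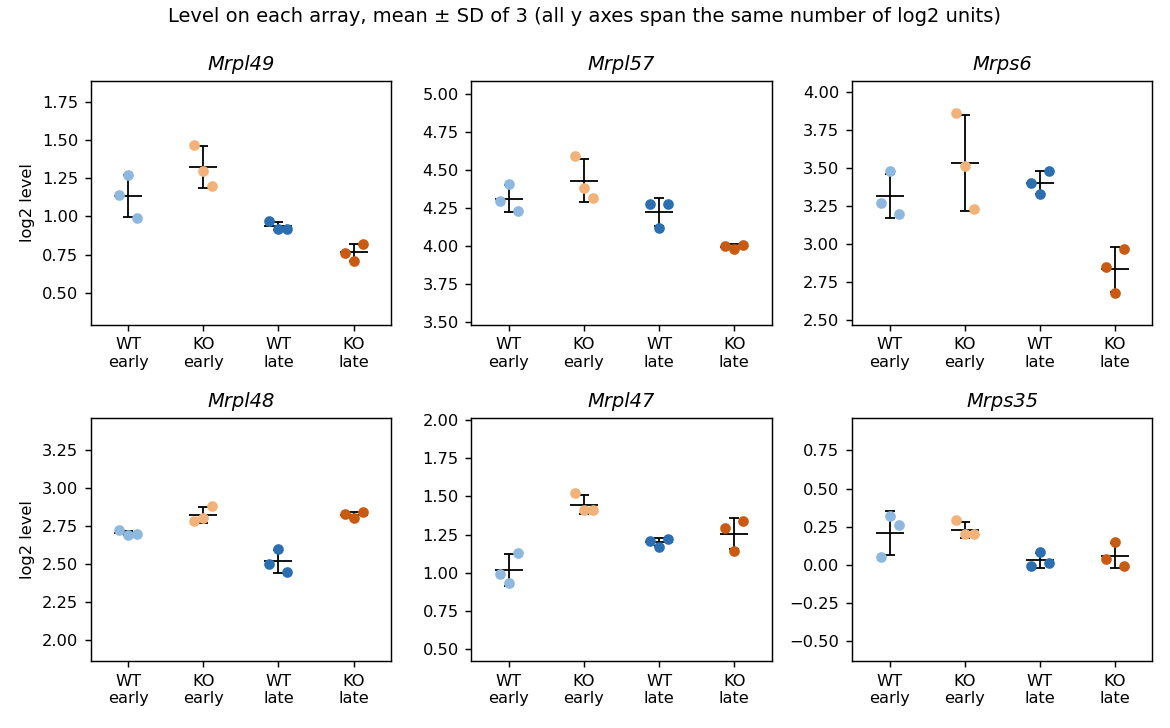
Log2 level of 6 genes on each array, with 3 arrays per group as points in the order of their replicate number and the mean ± SD as bars. Mrpl49, Mrpl57 and Mrps6 are lowest on KO late arrays, Mrpl48 is lowest on WT late arrays, Mrpl47 is highest on KO early arrays, and Mrps35 shows groups that overlap between the genotypes.

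Genes were also followed by role, whatever their values. The stalk of the large subunit recruits translation factors and is built of Mrpl10, Mrpl11 and Mrpl12. With passage in KO cells these had differences of -0.25 ± 0.11, -0.14 ± 0.094 and -0.33 ± 0.11 (limma adjusted p = 0.16, 0.32 and 0.069). Mrpl12 read 3.51, 3.25 and 3.04 on KO early arrays and 2.93, 2.95 and 2.94 on KO late arrays, so the early arrays were spread and the late ones were not. Mrps12, the counterpart of the bacterial decoding protein S12, had -0.25 ± 0.099 with passage in KO (adjusted p = 0.10) and 0.0023 in WT. Mrpl58, a peptide release factor built into the large subunit, had -0.22 ± 0.098 in KO (adjusted p = 0.14) and -0.16 in WT.

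The 3 paralogs Mrps18a, Mrps18b and Mrps18c, of which the product of Mrps18a is placed in the large subunit in structures of the mammalian ribosome, had differences of -0.19, -0.26 and -0.36 with passage in KO (limma adjusted p = 0.16, 0.14 and 0.069). In WT they had 0.00077, -0.02 and -0.094. Mrps30, also a protein of the large subunit in spite of its symbol, varied little, with -0.095 ± 0.07 in KO and -0.053 in WT. Mrps36 is now known as a subunit of the 2-oxoglutarate dehydrogenase complex and not as a ribosomal protein. It had -0.27 ± 0.11 with passage in KO (adjusted p = 0.12).

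Mrpl41 and Dap3, the latter a small subunit protein without an Mrp symbol, have been linked to cell death. For Mrpl41 the passage difference in KO was -0.34 ± 0.11 (limma adjusted p = 0.058) by its brightest probe. A second probe gave 0.53 ± 0.13, in the opposite direction, so no direction can be given for this gene. Dap3 read 4.25, 4.01 and 4.02 on KO early arrays and 3.98, 3.84 and 4.09 on KO late arrays. These overlapped, and its difference was -0.12 ± 0.10 (limma adjusted p = 0.45).

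The place of a pair of genes on the chromosome made them of interest. Mrps35 lies near Itpr2, with 10 protein-coding genes between them in the RefSeq table. It read 0.047, 0.32 and 0.26 on WT early arrays, 0.29, 0.20 and 0.20 on KO early arrays, -0.0073, 0.085 and 0.011 on WT late arrays and 0.039, 0.15 and -0.011 on KO late arrays. The genotypes overlapped at both passages, with KO against WT differences of 0.021 ± 0.09 and 0.028 ± 0.09 (limma adjusted p = 0.96 and 0.89). By contrast Ints13, which lies in the interval between them, was 0.80 higher on KO early arrays (limma adjusted p = 0.0024) and 0.78 higher on KO late arrays (adjusted p = 0.00068). Mrpl23 and Igf2 are neighbours, with 0 protein-coding genes between them in the RefSeq table. Igf2 fell by 3.97 with passage in WT and by 3.06 in KO (limma adjusted p = 0.00044 and 0.00051), and Mrpl23 had -0.05 ± 0.12 and -0.062 ± 0.12 in the same comparisons.

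Of the proteins that complete the mitochondrial ribosome under other symbols, 5 of 5 were tested. In KO cells with passage 1 of them fell, Aurkaip1, by 0.42 (limma adjusted p = 0.023), and the median of the 5 was -0.25. Aurkaip1 read 5.67, 5.42 and 5.40 on KO early arrays and 5.07, 4.98 and 5.19 on KO late arrays. Factors that assemble the ribosome and modify its RNA did not share the shift, with 1 of 24 higher, 0 lower and a median of 0.036. The gene that rose was Nsun4, a methyltransferase of the small subunit RNA, by 0.42 (adjusted p = 0.038). In WT cells with passage 2 of the 24 fell, Tfb1m by 0.49 and Ybey by 0.51 (limma adjusted p = 0.0099 and 0.016).

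Among 16 translation factors, 4 fell and 1 rose with passage in KO cells. Those that fell were the elongation factors Tufm (-0.38), Tsfm (-0.37) and Gfm1 (-0.35), and Taco1 (-0.45), which is needed to translate the messenger RNA of Cox1 (limma adjusted p = 0.045, 0.035, 0.042 and 0.016). The initiation factor Mtif2 rose by 0.72 in KO (adjusted p = 0.0018) and by 0.76 in WT (adjusted p = 0.0027), with 3.44 to 3.78 on the 6 early arrays and 4.32 to 4.48 on the 6 late arrays. Of 18 mitochondrial aminoacyl-tRNA synthetase genes, 1 fell in KO, Lars2 by 0.31 (adjusted p = 0.046), and 1 fell in WT, Vars2 by 0.51 (adjusted p = 0.011). Of 10 genes for the transcription and upkeep of mitochondrial DNA, 0 passed the test in any comparison (limma; 0 or 1 at an unadjusted p under 0.05 in each), and Tfam had -0.0028 with passage in KO.

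Genes for nuclear regulators of these genes moved in both directions. Esrra, a nuclear receptor that acts on genes of mitochondrial energy supply, fell by 0.47 with passage in KO (limma adjusted p = 0.0088) and was lower by -0.44 in KO than in WT cells at late passage (adjusted p = 0.024). It read 2.32, 2.31 and 2.29 on WT early, 2.51, 2.32 and 2.21 on KO early, 2.24, 2.24 and 2.46 on WT late and 1.86, 1.91 and 1.85 on KO late arrays, so KO late stood below all other groups. Ppargc1a, a coactivator of Esrra and NRF1, fell by 1.03 in KO (adjusted p = 0.044). Myc rose by 0.94 in KO (adjusted p = 0.00045) and by 0.95 in WT (adjusted p = 0.00098). The genes for NRF1 and GABPA had differences of 0.039 and -0.0092 with passage in KO (adjusted p = 0.76 and 0.96). Whether any of these bears on the ribosomal protein genes was not tested.

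The respiratory chain, whose core subunits the mitochondrial ribosome makes, showed the same direction as these genes in KO cells and more calls. Of 84 nuclear genes for it and for ATP synthase, 49 fell and 0 rose with passage in KO, with a median of -0.36. The largest falls were in Cox7a1, Cox6a2 and Cox6b2, subunits of cytochrome c oxidase made mainly in muscle, heart or testis, by 1.18, 0.96 and 0.79 (limma adjusted p = 0.0014, 0.015 and 0.0084). In WT 5 of the 84 fell, with a median of -0.12, led by Ndufa4l2 (-1.70), Cox6a2 (-1.09) and Cox6b2 (-0.97). The cytosolic ribosomal proteins, which belong to the other ribosome of the cell, had a median of -0.19 with passage in KO and also in WT, with 2 of 76 called lower in KO, Rps19 and Rpl35a, and 0 in WT (34 at an unadjusted p under 0.05 in WT, by limma). For the mitochondrial ribosomal protein genes the same medians were -0.24 and -0.063. At late passage 75 of the 76 cytosolic ribosomal protein genes were higher in KO than in WT (median 0.11, 0 called, 2 at an unadjusted p under 0.05), while 54 of the 77 mitochondrial ones were lower (median -0.081). The difference between these lists was not tested.

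**Figure D5:**
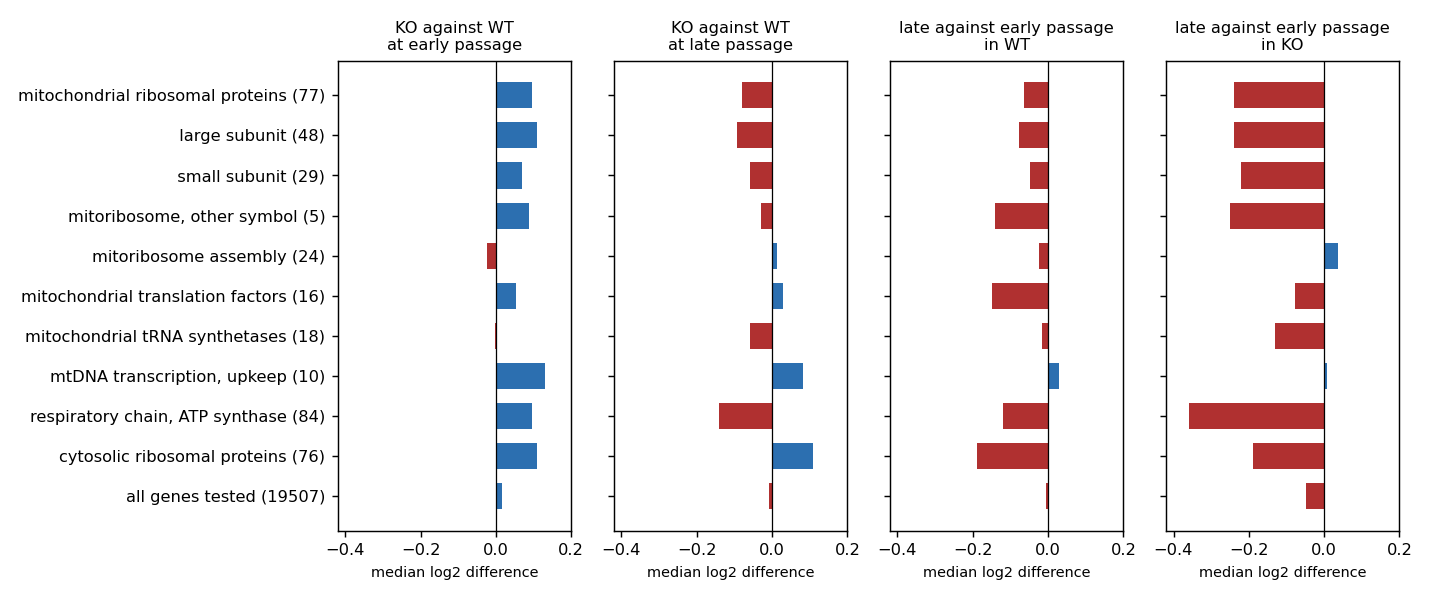
Median log2 difference of each gene list in 4 comparisons (x axis; number of genes tested in brackets), with red for values below 0 and blue for values above. With passage in KO cells the respiratory chain has the lowest median (-0.36), then the mitochondrial ribosomal protein genes (-0.24) beside the 5 mitoribosome genes with other symbols (-0.25); in WT cells the cytosolic ribosomal proteins have the lowest (-0.19).

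Further probes gave a partial check within the arrays. Of the 77 genes, 21 had a further kept probe, and with passage in KO 16 of these 21 had the same sign as the main probe, at a median of -0.10 against -0.24 for the main probes of all 77 genes. Mrps7, Mrps2, Mrpl41, Mrpl39 and Mrps17 did not. Among the genes that fell, Mrpl49, Mrpl40 and Mrps14 had a second probe, with differences of -0.30, -0.32 and -0.15. At early passage, KO against WT, 15 of the 21 had the same sign. The median of the 21 further probes was 0.0097, against 0.096 for the main probes of all 77 genes. For the difference between passage responses 13 had the same sign, with a median of -0.036 against -0.18 for all 77. These medians cover different sets of genes. At late passage, KO against WT, it was 14 (median -0.065), and with passage in WT 15 (median -0.051). In KO against WT cells the probes differed in sign for Mrps7, Mrps2, Mrps18b, Mrpl41, Mrpl39 and Mrpl4 at early passage and for Mrps14, Mrps26, Mrpl41, Mrpl47, Mrpl4, Mrpl27 and Mrpl15 at late passage. With passage in WT they differed in sign for Mrps7, Mrps26, Mrps23, Mrpl47, Mrpl39 and Mrps17, and in the difference between passage responses for Mrps7, Mrpl22, Mrps26, Mrps18b, Mrpl41, Mrpl39, Mrpl4 and Mrpl10.

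Marker genes of other cell types and of dividing cells were read beside these results. Of 10 fibroblast markers 10 were tested, and their mean log2 level was 4.04 to 4.45 on WT early, 4.34 to 4.36 on KO early, 3.68 to 4.02 on WT late and 3.87 to 4.06 on KO late arrays. With passage in KO, Thy1 fell by 1.75 and S100a4 by 1.27, Prrx1 fell too, and Twist1 rose by 0.58 (limma adjusted p = 0.0052, 0.015, 0.0037 and 0.016). The 10 macrophage markers had a mean level of 0.83 to 1.32 on KO early and 0.14 to 1.30 on KO late arrays, and 1.27 to 2.08 on WT late arrays. For 5 tested cartilage markers the mean was -1.09 to 0.26 on KO early and 1.15 to 1.61 on KO late arrays, and Sox9 and Cnmd rose. The list did not move as one, since 3 differences were positive and 2 negative, from -1 to 6.35. Cnmd read -8.02, -5.13 and -4.31 on KO early and 0.49, 0.45 and 0.65 on KO late arrays. Comp read 0.62, 1.12 and 1.42 on KO early and 0.10, -0.48 and 0.55 on KO late arrays. For 3 tested muscle markers the mean was -0.51 to -0.46 on KO early and -2.10 to -2.04 on KO late arrays. Des fell by 4.33 with passage in KO, while the other tested muscle markers had differences of -0.21 and -0.18. In WT cells this mean was -0.63 to 0.069 on early and -1.44 to -0.90 on late arrays. Myod1 and Myog were above background on 0 arrays. Cdh1, Krt8, Cdh5 and Plin1 were also above background on 0 arrays, and the 2 tested epithelial markers had a mean of -4.42 to -3.65 on KO early and -5.10 to -4.86 on KO late arrays. The 8 proliferation markers had a mean of 1.93 to 1.97 on KO early and 1.60 to 1.76 on KO late arrays. All 8 had a negative difference with passage in KO (median -0.23), and Rrm2 fell by 0.71 (limma adjusted p = 0.0091). The part of cell makeup or of cell division in the fall of the 15 genes was not tested.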

How the data were processed

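The members and the gene lists were chosen with earlier results of these data known. The deposited scanner files hold background-subtracted intensity per spot (Agilent Feature Extraction 11.5.1.1 per the file headers, 10.7.3.1 per the submitters' processing notes). The log2 intensity minus the 75th percentile of each array was taken, control and outlier spots were left out, and spots of a probe were averaged. A probe was kept if well above background on all arrays of a group, and the brightest kept probe stood for a gene. This left 24359 of 39429 probes. Of 28290 probes with a RefSeq accession, 27969 matched the gene table. All 12 arrays were fitted together with limma 3.58.1 in R 4.3.3, with 8 residual degrees of freedom, moderated, and Benjamini-Hochberg adjustment over all 19507 genes at 0.05. The procedure was tested on simulated data. The number of arrays limits the precision, exact permutation of 3 against 3 arrays cannot give a p below 0.1, and p-values measure the spread between these samples.

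The deposited value table holds log2 values centred per probe, without a stated scale; its array correlations with the scanner values were 0.998 to 0.999, and its column medians -0.043 to 0.023. It served as an alternative, as did normexp (offset 50, on the median signal and median background), quantile normalization, other filters, the mean of probes, only the groups compared, array weights, slide as a block and arrays left out. Same-numbered arrays share a slide. Their deviations from the group means correlated at 0.14 to 0.28 in the WT passage comparison, and from -0.09 to 0.16 in the others. Since number and slide coincide, these correlations cannot tell a shared animal from a shared slide. Xist was above background on KO late replicates 1 and 2 and on no KO early array. So these same-numbered KO arrays may not come from the same animal. In WT cells Xist was above background on replicate 1 at both passages. The main fit did not pair samples. In each comparison the text names the 5 genes of each subunit with the largest called difference, those with the smallest p up to 3 where fewer were called, genes picked by role or position, genes whose probes disagree and, of other lists, the 3 largest called differences. Other genes named were chosen after their values were seen.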

Additional observations from a re-analysis of the deposited data

How the results depend on the processing

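With passage in KO cells, 15 genes passed, where 9% of all genes were called lower. With quantile normalization 7 passed (7.09% of all genes lower), and with no filter on dim probes 5 (3.11%). With only the groups compared in the fit 25 passed (14.1%). With array quality weights 68 passed (2 higher and 66 lower), where 29.4% of all genes were called higher and 38% lower. Leaving out 1 array gave 3 to 23, where 3.82% to 12.2% of all genes were called lower. The median difference ran from -0.24 to -0.17 over the alternatives that kept all arrays and from -0.28 to -0.17 with 1 array left out. With the replicate block (slide) 14 genes passed, 11 of them among the 15, and 8.86% of all genes were called lower. Without the KO late arrays that carried Xist, only KO late replicate 3 was left in its group, and the median difference was -0.22. Without slide 1, an alternative added after seeing the data, 0 passed, where 2.27% of all genes were called lower. Mrpl49 and Mrpl57 lost their call in these 2 of 23 settings only, and Mrps6 in 3.

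In KO against WT cells at late passage, 2 genes passed. With array quality weights 8 passed (1 higher and 7 lower), where 9.51% of all genes were called higher and 12.1% lower. With no filter 0 passed (0.81% of all genes higher and 1.11% lower). With the replicate block 0 passed (3.32% and 3.92%), and without slide 1 also 0 (0.784% and 1.47%). Without the Xist arrays only KO late replicate 3 was left in its group, and the median difference was -0.063. Leaving out 1 array gave 0 to 2, where 0.6% to 5.4% of all genes were called higher and 0.707% to 6.66% lower. With passage in WT cells, 0 passed, also with the block (6.82% of all genes higher and 4.58% lower). Leaving out 1 array there gave 0 to 2, where 3.41% to 7.12% of all genes were called higher and 2.26% to 5.64% lower. At early passage, and for the difference between passage responses, 0 passed under every alternative run; the fit on only the groups compared could not be made for the latter. Over the single genes named, 2086 of 2279 values kept their side of the threshold and their sign, 65 no longer passed and 34 newly passed. The other 94, of 28 differences, changed sign, and 0 of them passed the test in either setting. The cause of these changes was not tested. Signal over background left out Mrpl21, normexp left 74 of the 77 genes, and calls were fewer when dim probes entered the fit.

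The values that changed sign were these. In KO against WT cells at early passage, the difference with the mean of probes was -0.0074 for Mrps7. With array quality weights it was -0.019 for Mrps35 and -0.0055 for Mrpl58. Without slide 1 it was -0.092 for Mrps35, -0.10 for Mrpl12, -0.038 for Mrpl58, -0.067 for Mrps18a, -0.050 for Mrps36 and -0.029 for Dap3. With quantile normalization it was -0.010 for Mrps36. With 1 array left out it ran from -0.061 to 0.076 for Mrps35, -0.048 to 0.19 for Mrpl12, -0.096 to 0.085 for Mrpl10, -0.017 to 0.15 for Mrpl58, -0.12 to 0.043 for Mrps12, -0.015 to 0.11 for Mrps18a and -0.057 to 0.094 for Mrps36. In KO against WT cells at late passage, the difference without the Xist arrays was -0.041 for Mrps35 and 0.021 for Mrps18b. Without slide 1 it was 0.023 for Mrpl11 and 0.012 for Mrps30. With array quality weights it was -0.0066 for Mrpl58. With quantile normalization it was 0.036 for Mrps30. With normexp it was 0.022 for Mrps30. In the deposited log2 table it was 0.010 for Mrps30. With 1 array left out it ran from -0.016 to 0.063 for Mrps35, -0.091 to 0.018 for Mrpl11, -0.022 to 0.050 for Mrpl58 and -0.027 to 0.029 for Mrps30. With passage in WT cells, the difference with quantile normalization was 0.012 for Mrpl11 and 0.011 for Mrps18b. With normexp it was 0.0076 for Mrpl11 and 0.011 for Mrps18b. In the deposited log2 table it was -0.0018 for Mrps12 and -0.0034 for Mrps18a. Without slide 1 it was -0.033 for Mrps12 and -0.087 for Mrps18a. With array quality weights it was -0.024 for Mrpl41. With 1 array left out it ran from -0.14 to 0.027 for Mrpl23, -0.082 to 0.027 for Mrpl11, -0.041 to 0.063 for Mrps12, -0.071 to 0.057 for Mrps18a, -0.074 to 0.024 for Mrps18b and -0.038 to 0.095 for Mrpl41. With passage in KO cells, the difference with quantile normalization was 0.047 for Mrpl23. Without slide 1 it was 0.049 for Mrpl23. With the mean of probes it was 0.094 for Mrpl41. Without the Xist arrays it was 0.0042 for Dap3. With 1 array left out it ran from -0.13 to 0.032 for Mrpl23. In the difference between passage responses, the difference with normexp was -0.0039 for Mrps35, 0.0027 for Mrpl23, 0.065 for Mrpl10 and 0.0047 for Mrps30. Without the Xist arrays it was -0.062 for Mrps35. With quantile normalization it was 0.065 for Mrpl23, 1.9e-05 for Mrpl58 and 0.0052 for Mrps30. In the deposited log2 table it was 0.0063 for Mrpl23. With array quality weights it was 0.011 for Mrpl23. Without slide 1 it was 0.11 for Mrpl23, 0.013 for Mrpl10, 0.10 for Mrpl58 and 0.0089 for Mrps30. With 1 array left out it ran from -0.048 to 0.090 for Mrps35, -0.089 to 0.082 for Mrpl23 and -0.13 to 0.038 for Mrpl58.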
